A study of Mus musculus with 2 samples.

Results

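Memory-like CD8 T cells that carry transcripts of Ccl5, Eomes, Cxcr3 or Xcl1 were described in inguinal lymph nodes draining a tumour. The cells were selected on their own counts in single-cell RNA libraries. A barcode was kept as a cell when it held at least 1200 UMIs (unique molecular identifiers, each standing for 1 captured transcript) from at least 200 genes, with at most 25% of them from mitochondrially encoded genes. CD8 cells were those with at least 1 UMI of Cd3e, Cd3d and Cd3g together and at least 1 of Cd8a and Cd8b1 together, with no UMI of Cd4, Prox1 or Egfl7 and at most 1 of Cd79a. A CD8 cell was called memory-like when the summed UMIs of Ccl5, Eomes, Cxcr3 and Xcl1, the 4 gate genes, reached 2. Of 8091 cells, 1121 were CD8 cells, and 266 of those were memory-like. A further 769 CD8 cells held no UMI of the gate genes and are called gate-zero cells here, and 86 held exactly 1.

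The study compared wild-type mice (WT) with mice of the ATG5LEC-KO line, in which Atg5, a gene of the autophagy machinery, is deleted in lymphatic endothelial cells. The T cells of both groups are therefore not the target of the deletion. There was 1 library per genotype, from 13 pooled nodes of WT mice and 9 pooled nodes of ATG5LEC-KO mice, labelled ATG5 KO. In both, CD31+ endothelial cells and CD45+ immune cells were sorted as viable Ter119-negative cells and pooled, so the animals cannot be separated. The labels used here name neither the Cre driver, the tumour, the strain nor the age of the mice.

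Memory CD8 T cells are antigen-experienced or cytokine-matured cells that respond faster than naive cells. Part of the memory-like pool of a mouse arises without foreign antigen, under IL-4 and IL-15, and is known as virtual memory. The transcription factors Eomes and T-bet raise Il2rb, the receptor chain shared by IL-2 and IL-15, on which the survival of these cells depends. Ccl5 is a chemokine that memory CD8 cells transcribe at rest. Xcl1 draws cross-presenting dendritic cells, and Cxcr3 is the receptor that takes T cells to sites of interferon-induced chemokines.

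The libraries were of similar depth, with 23649554 UMIs over all barcodes for WT and 23089918 for ATG5 KO, and 3893 and 4198 cells passed the thresholds. Between them 15463 barcodes were shared, but only 15 of those reached 1200 UMIs in both. Memory-like cells were deeper than gate-zero cells: the median WT cell held 4761 UMIs and the median ATG5 KO cell 5011, against 3628 and 3786. Mitochondrial transcripts made up 9.59% and 9.61% of their UMIs, against 10% and 10.1%. Cells of both sexes were present in each library. Among memory-like cells that could be assigned a sex, 80.0% were male in the WT library (95% exact interval 67.0 to 89.6) and 47.2% in the ATG5 KO library (37.5 to 57.1). Atg5 itself was found in 13 WT and 35 ATG5 KO memory-like cells, at 45.3 and 53.9 CPM, the count of a gene scaled to a common total of UMIs per class, leaving out mitochondrially encoded genes. These 3' tags do not show whether the deleted part of a transcript is present.

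The gate genes were the basis of selection, so their values describe the cells and carry no test. Eomes was found in the most members, 62 of 87 WT cells (71.3%) and 130 of 179 ATG5 KO cells (72.6%). Ccl5 was found in fewer members, 50 (57.5%) and 118 (65.9%), but at far more UMIs per cell: the median Ccl5-positive member held 9.5 UMIs (WT) and 8 UMIs (ATG5 KO), and the highest 64 and 132. The median Eomes-positive member held 2 UMIs in each. Cxcr3 was found in 28.7% and 32.4% of members and Xcl1 in 21.8% and 19.0%. All 4 genes were found together in 4 WT and 10 ATG5 KO cells. The gate thus joined cells of unlike makeup. Ccl5 and Eomes were both found in 30 WT members (34.5%) and 75 ATG5 KO members (41.9%), Ccl5 without Eomes in 20 (23.0%) and 43 (24.0%), and Eomes without Ccl5 in 32 (36.8%) and 55 (30.7%).

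The gate was seldom met in B cells, taken as a cell type that should lack these genes. A summed gate count of 2 or more was found in 2 of 1346 WT B cells (0.149%) and 4 of 1549 ATG5 KO B cells (0.258%), at median depths of 2756 and 2761 UMIs. CD4 T cells, which can express some of these genes and so give no background rate, met it in 6 of 307 (1.95%) and 10 of 542 (1.85%), at medians of 3244 and 3476 UMIs. Cxcr3 stood at 20.7 and 13.5 CPM in all CD4 T cells, against 24.3 and 33.9 in all CD8 cells. With every cell thinned to 1200 UMIs, the share that met the gate was 9.65% and 13.8% of CD8 cells, against 0.0836% and 0.459% of CD4 T cells and 0.0204% and 0.0604% of B cells. The gate genes lie on separate chromosomes. On the mm10 build, Ccl5 (ENSMUSG00000035042.2) is at chr11:83525778-83530518 and Eomes (ENSMUSG00000032446.14) at chr9:118478212-118486132. Cxcr3 (ENSMUSG00000050232.6) is at chrX:101731535-101734269 and Xcl1 (ENSMUSG00000026573.7) at chr1:164931644-164935527.

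Genes outside the gate showed which cells had been gathered. The UMIs of memory-like and gate-zero cells were summed per library, and the 4 sums were compared with edgeR's quasi-likelihood test with the library as a block. Of 8329 genes tested, 362 (4.35%) were higher and 232 (2.79%) lower in memory-like cells at a Benjamini-Hochberg adjusted p under 0.05, and the median difference over all genes tested was 0.00 on the log2 scale. All p-values given for this comparison are adjusted values from that test, with SE as the standard error of the log2 difference. The fit had 1 residual degree of freedom, which is how far the class difference varied between the 2 libraries of pooled animals. The p-values rest on that and on a spread pooled over all genes tested, and do not measure variation between animals. DESeq2 called 61 genes higher and 15 lower, all of them among the edgeR calls. Of 141 called genes that belong to the lists or the naming rule, 41 were also called by DESeq2, and 23 kept their call in every alternative in which they could be tested.

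Memory genes were higher. Ly6c2, which encodes the Ly6C glycoprotein of memory CD8 cells, stood at 1868 CPM in WT and 2080 in ATG5 KO memory-like cells, against 523 and 388 in gate-zero cells. Both memory-like sums lay well above both gate-zero sums, a log2 difference of 2.18 (SE 0.09, adjusted p = 2.06e-84). Il2rb, the IL-15 receptor chain, stood at 663 and 699 CPM against 200 and 209, a log2 difference of 1.77 (SE 0.11, adjusted p = 1.13e-42). Cd44, the adhesion receptor by which antigen-experienced T cells are sorted, stood at 258 and 196 CPM against 37.8 and 34.7 (log2 difference 2.65, SE 0.20, adjusted p = 7.76e-32). These 3 genes kept their call in all 17 alternatives, with log2 differences between 1.67 and 2.39 for Ly6c2, 1.64 and 2.01 for Il2rb, and 2.12 and 2.98 for Cd44. Ly6c2 was found in 87.4% and 84.9% of memory-like cells against 36.5% and 33% of gate-zero cells. With every cell thinned to 1200 UMIs these shares were 72.3% and 71.6% against 25.2% and 20.4%. Il2rb stood likewise at 44.2% and 47.8% against 17.6% and 17.7% after thinning, from 77% and 81% against 37.7% and 42.5%.

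Of 22 tested genes of the central and virtual memory list, 16 were higher, 1 was lower and 5 were not called, with a median log2 difference of 1.38 (DESeq2 called 9 higher and none lower). The list shares Nkg7, Ifng, Fasl, Klrk1 and others with the lists of cytotoxic and killer lectin genes below. Tbx21, Samd3, Klrk1, Ifng, Fasl and Gzmm reached the tested set only through memory-like cells, so their calls are a description. Tbx21, which encodes T-bet, stood at 52.1 and 60.3 CPM against 8.10 and 3.79. Il18r1, a receptor chain for IL-18, stood at 272 and 222 CPM against 81.0 and 84.6. The other chain, Il18rap, stood at 92.8 and 71.9 CPM against 9.90 and 5.68. Samd3, whose role in these cells is little described, was almost confined to memory-like cells within this comparison, with 86 and 115 UMIs in 44 and 65 cells against 5 and 5 UMIs in 4 and 2 cells. The integrin chain Itgb1 stood at 466 and 389 CPM against 128 and 99.2. Bcl2, a survival factor, stood at 267 and 259 CPM against 145 and 174, a call that DESeq2 did not make. The single lower gene was Ccr7, the receptor for entry into nodes, at 306 and 363 CPM against 541 and 525 (adjusted p = 1.55e-06), which DESeq2 did not call either. Il7r, the IL-7 receptor chain, stood at 1343 and 1336 CPM against 1157 and 1266 and was not called.

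**Figure D1:**
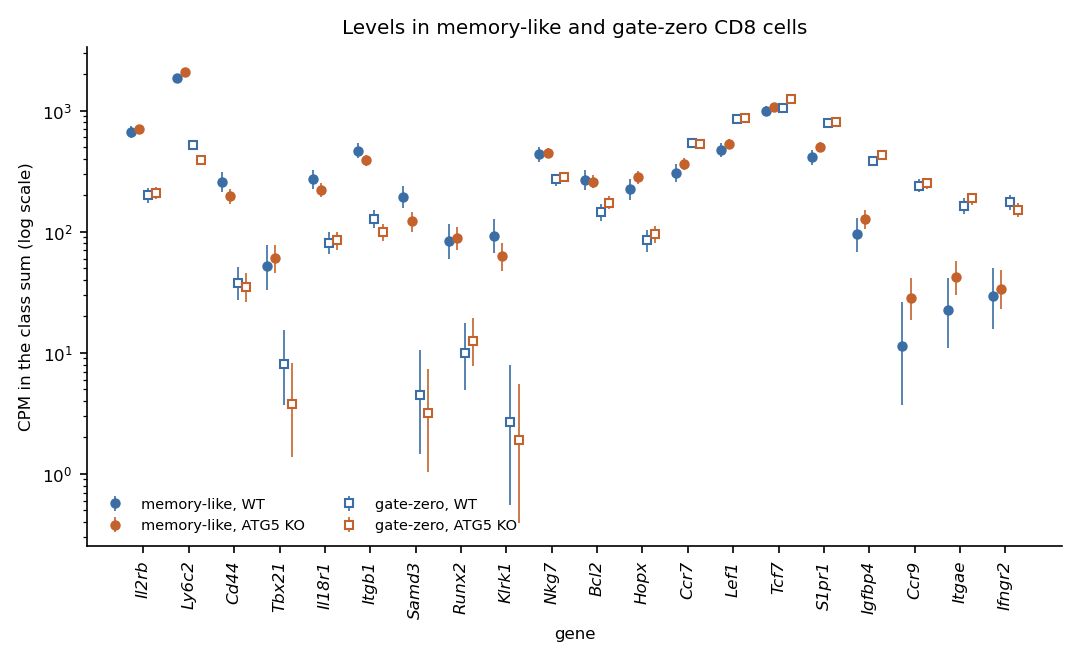
Level of 20 genes outside the gate, in CPM on a log axis, in the summed UMIs of memory-like cells (filled circles) and gate-zero cells (open squares) of the WT (blue) and ATG5 KO (orange) libraries. Bars are exact 95% Poisson intervals of the counts. Il2rb, Ly6c2 and Cd44 are higher in both memory-like sums, Ccr9 and Itgae are lower, and Tcf7 lies between 985 and 1253 CPM in all 4 sums.

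Part of the naive genes were lower. Of 20 tested genes of the naive and quiescence list, 12 were lower, none higher and 8 were not called, with a median log2 difference of -0.37 (DESeq2 called 3 lower). Igfbp4, a marker of naive T cells in the mouse, stood at 95.1 and 127 CPM in memory-like cells against 384 and 432 in gate-zero cells (log2 difference -1.82, SE 0.14, adjusted p = 1.07e-29). Lef1, a transcription factor of naive T cells, stood at 476 and 531 CPM against 849 and 863 (log2 difference -0.73, SE 0.10, adjusted p = 2.03e-11). S1pr1, the receptor that guides T cells out of nodes, stood at 410 and 499 CPM against 790 and 809 (log2 difference -0.77, SE 0.10, adjusted p = 4.35e-12). Tcf7, the partner of Lef1 that memory cells retain, stood at 985 and 1063 CPM against 1057 and 1253 and was not called (adjusted p = 0.362). Klf2, which drives S1pr1, stood at 1476 and 1103 CPM against 1671 and 1151 and was not called either.

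Ccr9 and Itgae were among the genes with the lowest differences. Ccr9, the gut-homing chemokine receptor that naive CD8 cells also carry, was found in 3 of 87 WT and 10 of 179 ATG5 KO memory-like cells (5 and 27 UMIs) against 124 of 329 and 183 of 440 gate-zero cells (267 and 397 UMIs). That is 11.3 and 28.5 CPM against 240 and 251, a log2 difference of -3.42 (SE 0.22, adjusted p = 6.01e-40). Itgae, which encodes CD103, the integrin chain that binds E-cadherin, stood at 22.6 and 42.3 CPM against 163 and 188 (log2 difference -2.32, SE 0.22, adjusted p = 6.42e-21). Its partner chain Itgb7 stood at 190 and 223 CPM against 303 and 385, a log2 difference of -0.71. The homing and adhesion list as a whole ran both ways, with 9 of 20 tested genes higher, 6 lower and a median log2 difference of 0.17 (DESeq2 called 4 and 3). Among the higher ones was Cd69, a retention and activation marker, at 770 and 812 CPM against 594 and 531, a call lost with DESeq2. The lowest differences held further genes of few UMIs, which reached the tested set only through gate-zero cells. Plaur, which encodes the urokinase receptor, had 2 and 13 UMIs in members against 83 and 98 (log2 difference -2.62, SE 0.36, adjusted p = 2.30e-10). Gria3, which encodes a glutamate receptor subunit, had 3 and 3 against 40 and 46. Amigo2 had none and 1 against 20 and 20, Cyp2s1 had 1 and none against 16 and 19, and 1700062C10Rik had none and 2 against 22 and 22. Syt6 had 2 and 2 against 13 and 48, and Neb none and 4 against 11 and 36. Cr2, a complement receptor of B cells, had 1 and 1 against 12 and 21, the latter in 2 and 3 cells. Ifngr2, the chain of the interferon gamma receptor that limits signalling in T cells, was lower at 29.4 and 33.8 CPM against 175 and 152 (log2 difference -2.28, SE 0.23, adjusted p = 7.87e-19). The other chain, Ifngr1, stood at 356 and 385 CPM against 325 and 321 and was not called.

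Killer lectin receptors, which natural killer cells share with memory CD8 cells, showed the widest differences. Of 21 genes on the list, 10 had enough UMIs to be tested, and 9 of these were higher (DESeq2 called 3). Several held no UMI or 1 UMI in gate-zero cells and reached the tested set only through memory-like cells, so that count is a description. With no filter on low counts 11 of all 21 were higher. Their median log2 difference was 5.22 when genes at 0 in gate-zero cells were set at their bound. Klra1, which encodes an inhibitory Ly49 receptor, was found in 14 WT and 26 ATG5 KO members (38 and 46 UMIs) and in none of 769 gate-zero cells. Counting the gate-zero cells at a floor of 3 UMIs over the class, it was at least 54.4-fold higher. Klrc1, which encodes the inhibitory receptor NKG2A, was found in 11 and 22 members and no gate-zero cell, at least 44.7-fold higher. Klra7 had 38 and 55 UMIs in 12 and 23 members against 1 and 1 (log2 difference 6.36, SE 0.57, adjusted p = 2.13e-23). Klrk1, which encodes the activating receptor NKG2D, had 41 and 59 UMIs in 12 and 22 members against 3 and 3. Most members held no Klra1 UMI: the share with one was 16.1% in the WT and 14.5% in the ATG5 KO library. Klrd1, the partner chain of the NKG2 receptors, was found in both classes at 274 and 315 CPM against 244 and 257 and was not called (adjusted p = 0.219). The Klra receptors are near-identical copies in a cluster on chromosome 6, with Klra1 at chr6:130363917-130386874 and Klra7 at chr6:130218605-130233322 on the minus strand of mm10, so reads can be shared between them and their separate levels are uncertain. Other genes with no UMI in gate-zero cells were Aqp9, a glycerol channel of memory CD8 cells, in 9 and 18 members and at least 25.2-fold higher, and Gas7, in 6 and 17 members and at least 18.1-fold higher. Klrc2, an activating relative of Klrc1, was at least 20.1-fold and 5830411N06Rik at least 16.2-fold higher. Klra4 had 8 and 21 UMIs against none and 1, and Klra6 42 and 22 against 1 and none.

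**Figure D2:**
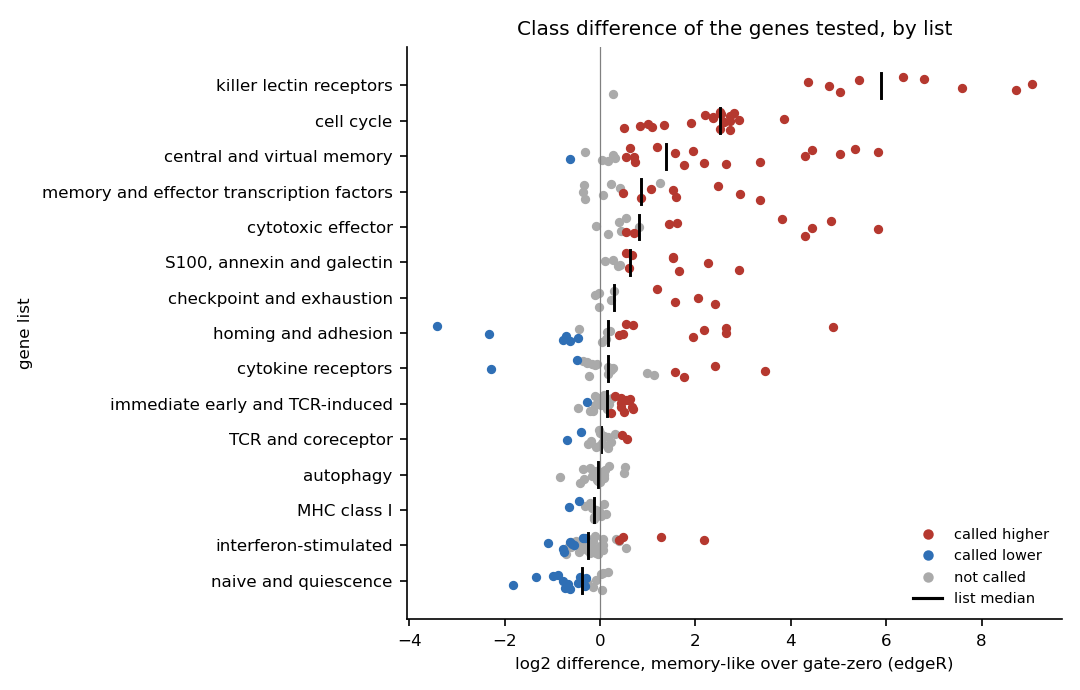
Log2 difference between memory-like and gate-zero cells (edgeR, 4 sums) for each tested gene of 15 lists, with the list median as a black line and colour for the call at adjusted p under 0.05. Killer lectin genes reach beyond 8 because gate-zero cells held no UMI of some of them, so those points are fitted values and not bounds. Memory genes lie mainly to the right and naive genes to the left, and autophagy genes around 0.

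Transcripts of rapid effector function were present at low level. Of 15 tested genes of the cytotoxic list, 9 were higher and none lower, with a median log2 difference of 0.82 (DESeq2 called 2). Nkg7, a granule protein, stood at 437 and 446 CPM in memory-like cells against 270 and 282. Ccl4, an inflammatory chemokine, had 44 and 57 UMIs against 11 and 4 (log2 difference 3.82, SE 0.39, adjusted p = 2.07e-18). Ifng, the gene of interferon gamma, had 14 UMIs in 6 WT members and 93 in 19 ATG5 KO members, 48 of them in 1 cell, against 2 and 1 UMIs. Fasl, the death receptor ligand, had 5 and 36 UMIs against 1 and 2. Of the granzymes, Gzmm was higher, with 10 and 23 UMIs in 6 and 18 members against 1 and 2 UMIs in gate-zero cells (log2 difference 4.29, SE 0.79, adjusted p = 6.32e-06). That call was lost in male cells and with DESeq2. Ccl4, Ifng, Fasl and Gzmm held few UMIs in gate-zero cells and reached the tested set only through memory-like cells. Their calls, and the list's count of higher genes, are therefore a description. Gzma, Gzmb and Gzmk did not pass the filter on low counts and were not tested. Gzma was found in no WT and 4 ATG5 KO members, Gzmb in 1 and 3, and Gzmk in none and 5. Prf1, which encodes perforin, stood at 38.5 and 67.7 CPM against 50.4 and 50.5 and was not called (adjusted p = 0.870). Klrg1 and Cx3cr1, markers of terminal effector cells, had 5 and 3 UMIs in all members together, all of them in the ATG5 KO library. For Gzma and Gzmk, 0 of 87 WT cells has an exact 95% upper limit of 4.15% of cells with a UMI.

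Among transcription factors, 8 of 15 tested were higher and none lower (DESeq2 called 4). Tbx21 is counted among the higher ones and reached the tested set only through memory-like cells, so that count is a description. Runx2 stood at 83.8 and 88.8 CPM against 9.90 and 12.6 (log2 difference 2.94, SE 0.32, adjusted p = 4.78e-16). Hopx, a homeodomain protein without DNA contact, stood at 224 and 282 CPM against 84.6 and 95.4, and Bhlhe40 at 67.9 and 59.2 CPM against 13.5 and 10.1. Id2, a factor of effector differentiation, stood at 206 and 230 CPM against 315 and 258 and was not called. Zfp683, which encodes the tissue-residency factor Hobit, had 1 UMI in all members. Of 9 tested checkpoint genes 4 were higher, namely Lag3, Cd160, Tnfrsf9 and Cd200, and DESeq2 called none. Tox, the factor of exhausted T cells, stood at 202 and 172 CPM against 159 and 159 and was not called, and Pdcd1, which encodes PD-1, had 4 UMIs in 3 WT members and 15 UMIs in 9 ATG5 KO members.

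Genes of cell shape and migration moved with the class. Of 12 tested genes of the S100, annexin and galectin list, 8 were higher (DESeq2 called 5), with Ahnak at 340 and 388 CPM against 139 and 122 (log2 difference 1.53, SE 0.13, adjusted p = 7.95e-24). Ctla2a, which encodes a cathepsin inhibitor, stood at 457 and 408 CPM against 52.2 and 48.6 and was singled out after its values had been seen. The interferon-stimulated list had 49 tested genes, of which edgeR called 4 up and 8 down (DESeq2 3 and 2), and its median log2 difference was -0.26. Ifi213, an interferon-induced gene, stood at 229 and 246 CPM against 399 and 435 (log2 difference -0.78). Among 28 tested immediate early genes edgeR called 11 up and 1 down and DESeq2 called 1, at a median of 0.14. Of 17 tested autophagy genes none was called by edgeR (2 at an unadjusted p under 0.05) or by DESeq2 (0 at that level), with a median of -0.05. Of 13 tested MHC class I genes none was higher and 2 were lower, Tap2 and Nlrc5, and DESeq2 called none. Tap2 kept its call in only 2 of 17 alternatives and Nlrc5 in 10 of 17.

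Cell cycle genes were carried by a few cells. Of 19 tested genes of that list all were higher, with a median log2 difference of 2.52, and DESeq2 called 3. Mki67, a marker of dividing cells, was found in 3 WT and 10 ATG5 KO members (60 and 263 UMIs) against 1 and 9 gate-zero cells (5 and 94 UMIs). Mki67 reached the tested set only through memory-like cells, so its call and the list's count of higher genes are a description. Cells with 10 or more UMIs of the list numbered 4 of 87 (4.6%) and 12 of 179 (6.7%) among members, and 4 of 329 (1.22%) and 3 of 440 (0.682%) among gate-zero cells. They held 80.7% and 79.4% of the list's UMIs in members. Their median depth was 14942 and 14559 UMIs. Among cells of 2000 to 6000 UMIs, 6 genes of the list could be tested by edgeR and none was called.

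Markers of other lymphocytes, which the gate does not remove, were measured in the same sums, and their part in the class differences was not tested beyond the values given. Trac, the constant gene of the alpha chain, was found in 79 of 87 and 174 of 179 members at 1250 and 1286 CPM, against 1142 and 1160 CPM in gate-zero cells. Ncr1, the defining natural killer gene, was at 0 in all 4 sums, and Tyrobp or Fcer1g or both were found in 7 WT (8.05%) and 6 ATG5 KO members (3.35%), against 3 (0.912%) and 2 (0.455%) gate-zero cells. Of 6 tested genes of the natural killer and innate lymphoid list 3 were higher, Klra4, Klre1 and Gata3, and DESeq2 called none. Klra4 reached the tested set only through memory-like cells, so this list's count of higher genes is a description. The list's summed level was 498 and 513 CPM in members against 338 and 344. A UMI of a gamma-delta T cell receptor constant gene was found in 15 WT (17.2%) and 14 ATG5 KO members (7.82%), of which 4 and 5 cells held Trdc, against 9 (2.74%) and 13 (2.95%) gate-zero cells. The summed level of the gamma-delta list was 159 and 62.4 CPM in members against 17.1 and 106, with Trdv4 among its genes at 0 in members. Without cells holding a natural killer or gamma-delta UMI, 363 genes were higher and 204 lower, and 316 and 177 of them were among the main calls. Of 6 tested B cell genes 2 were lower, Cd74 and H2-Ab1, and DESeq2 called none. Cd74 had 246 UMIs in 16 WT gate-zero cells, 203 in 1 cell, and without the WT library its log2 difference was 0.29, against -1.35 with both.

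Levels of several genes outside the gate graded across its threshold. The threshold lay between cells with 1 gate UMI (26 WT and 60 ATG5 KO cells) and those with 2 (19 and 35 cells), which had median depths of 4090 and 4434, and 4116 and 4645 UMIs. Ly6c2 stood at 523 CPM in gate-zero WT cells, 1127 at 1 gate UMI, 1451 at 2, 1509 at 3 to 5 and 2183 at 6 or more. In the ATG5 KO library the steps were 388, 958, 1219, 2317 and 2268 CPM. The level just outside the gate thus lay between those of gate-zero cells and members in both libraries. Il2rb stood at 228 and 315 CPM just outside, at 345 and 455 just inside and at 816 and 850 at 6 or more gate UMIs. Igfbp4 ran the other way, from 314 and 369 CPM just outside through 180 and 303 just inside to 37.3 and 73.1. Cd44 stood at 37.8 and 34.7 CPM at 0 gate UMIs, 0 and 50.6 just outside and 124 and 107 just inside. It rose further to 195 and 145 CPM at 3 to 5 gate UMIs and 331 and 238 at 6 or more. In the ATG5 KO library the intervals just outside (27.7 to 85) and just inside (64.3 to 167) overlapped. In the WT library these levels rested on 0 and 9 UMIs, so a step at the threshold cannot be told from a gradual rise. Lef1 stood at 694 and 904 CPM just outside, against 849 and 863 at 0 gate UMIs and 566 and 775 just inside. Klra1 was mainly found at 6 or more gate UMIs, at 141 and 71.4 CPM.

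**Figure D3:**
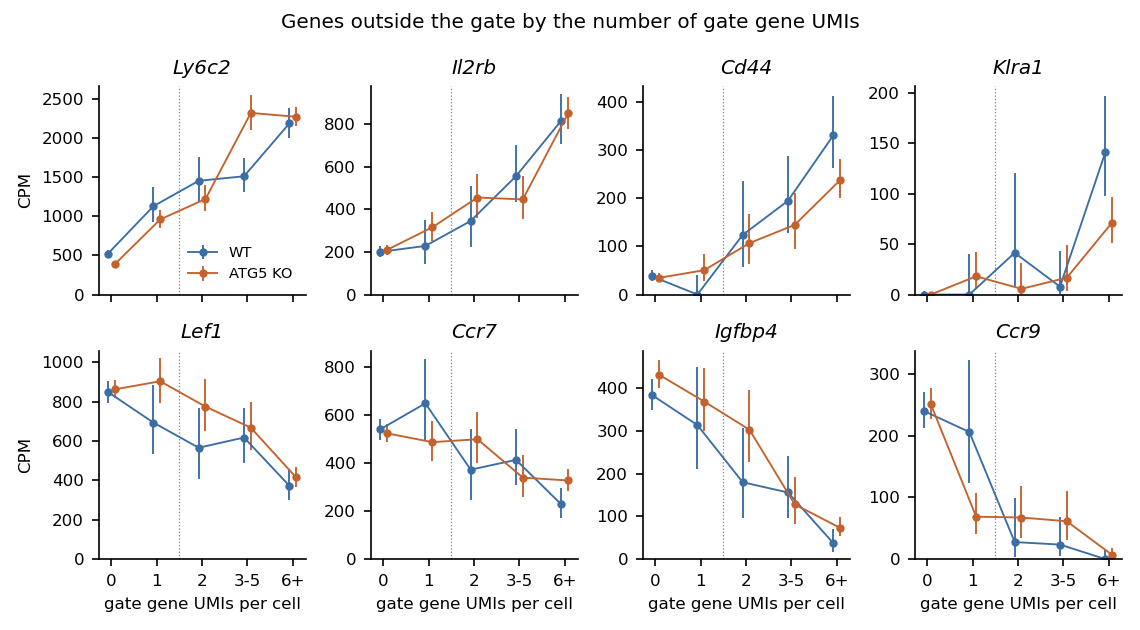
Level in CPM of 8 genes outside the gate in CD8 cells grouped by the number of gate gene UMIs per cell (0, 1, 2, 3 to 5, 6 or more), for the WT (blue) and ATG5 KO (orange) libraries, with exact 95% Poisson intervals. The dotted line is the threshold of the gate. Il2rb and Cd44 are highest and Lef1, Igfbp4 and Ccr9 lowest in cells with 6 or more gate UMIs in both libraries, and Ly6c2 in the ATG5 KO library is at 2317 CPM at 3 to 5 gate UMIs and 2268 at 6 or more.

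The gate gene that brought a cell in went with different levels of the other memory genes, given here as a description. Members with Ccl5 and without Eomes held 3023 (WT) and 2453 (ATG5 KO) CPM of Ly6c2 and 790 and 937 CPM of Il2rb. Members with both held 2372 and 2764 CPM of Ly6c2 and 897 and 836 CPM of Il2rb. Members with Eomes and without Ccl5 lay between those and gate-zero cells, at 1279 and 1093 CPM of Ly6c2 and 440 and 386 CPM of Il2rb. The last also kept more of the naive genes: Igfbp4 stood at 213 and 225 CPM, against 43.6 and 85.6 in members with both, and Lef1 at 696 and 680 CPM against 361 and 404. Klra1 stood at 0 and 3.42 CPM in members with Eomes and without Ccl5, and at 125 and 92.9 CPM in members with both. Bcl2 stood at 149 and 140 CPM in members with Eomes and without Ccl5, near or below the 145 and 174 CPM of gate-zero cells, and at 374 and 338 CPM in members with both genes. The 3 groups had median depths of 4751 and 4209, 5092 and 5368, and 4418 and 4956 UMIs.

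Promoters were searched for the letters that T-box factors, the family of Eomes and T-bet, are known to bind, since the genes above moved together with a gate that holds Eomes. The 250 bases before each RefSeq start (GRCm38.p6, both strands) were searched for GGTGTGA. The motif was in 5.12% of 293 genes that were higher and had a promoter entry, in 3.51% of 171 that were lower, in 3.28% of all 6705 tested and in 3.84% of all 27025 genes. Among genes looked at singly, Eomes, Cxcr3, Ifng, Tbx21, Cd44, Ly6c2, Klrk1, Klrc1 and Klra1 were among those with no match. Ccl5 and Il2rb had no promoter entry. Windows of 3 genes with a match are printed to show where the letters lie: Xcl1, a gate gene and so not among those tested, Nkg7 and Samd3. Each reads 5' to 3' on the strand of its gene, with the motif in capitals.
Xcl1, chr1:164935674-164935740, minus strand: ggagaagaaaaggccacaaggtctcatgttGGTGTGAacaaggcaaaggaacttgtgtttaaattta
Nkg7, chr7:43437095-43437137, plus strand: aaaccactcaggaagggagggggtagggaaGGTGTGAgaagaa
Samd3, chr10:26229662-26229706, plus strand: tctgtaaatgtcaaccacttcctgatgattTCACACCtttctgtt
The motif begins 188 bases before the RefSeq start in Xcl1, 13 in Nkg7 and 15 in Samd3, where it runs on the opposite strand. The RUNX letters TGTGGTT were in 5.46% of the higher, 5.85% of the lower and 3.82% of all tested genes, and the TCF and LEF letters CTTTGAA in 4.44%, 3.51% and 3.83%. A match describes the letters and not a bound site.

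Memory-like cells made up a larger share of CD8 cells in the ATG5 KO library. The share was 19.7% for WT (87 of 442, exact 95% interval 16.1 to 23.7) and 26.4% for ATG5 KO (179 of 679, 23.1 to 29.8), a difference of 6.68 percentage points (Newcombe interval 1.6 to 11.5). With 1 library per genotype there is no replicate check and no test, and the intervals cover counting error only. A larger share was found in the ATG5 KO library in each of the 12 alternatives, from 3.57 points among male cells (interval -4.29 to 11.4) to 8.86 among female cells (-5.01 to 19.8), and 4.55 points among cells with at most 10% mitochondrial UMIs (-3.15 to 11.9). Within each sex the interval included 0, and only 54 WT CD8 cells were female, 11 of them memory-like. With a common depth of 1200 UMIs per cell the shares were 9.65% and 13.8%, a difference of 4.13 points (0.208 to 7.83). The sex mix, the number of nodes and the genotype differ together between the libraries and cannot be told apart in the pooled share.

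**Figure D4:**
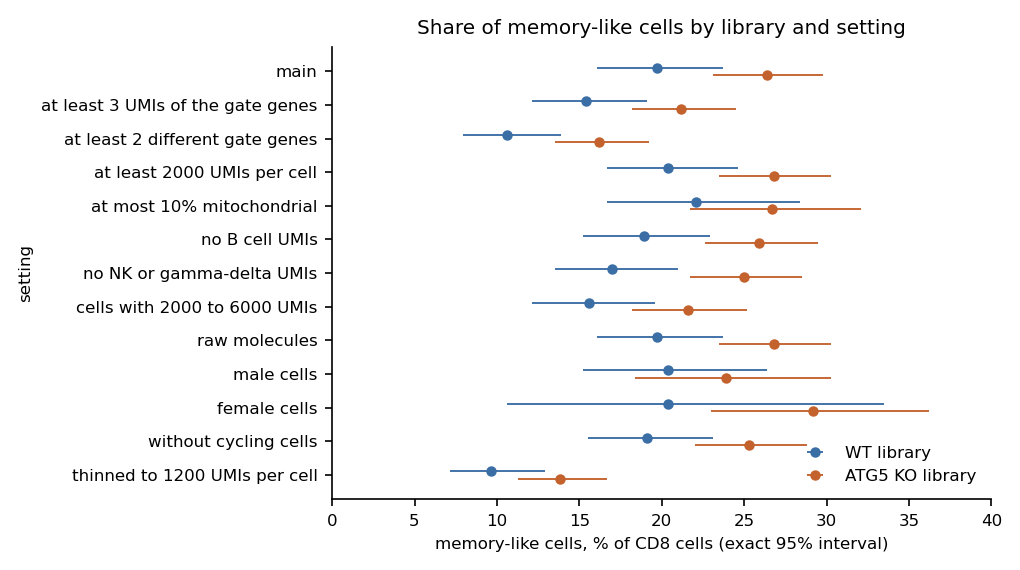
Share of memory-like cells among CD8 cells, in percent, in the WT (blue) and ATG5 KO (orange) libraries with exact 95% intervals, for the rule as given (main) and 12 alternatives. The ATG5 KO point lies to the right of the WT point in every setting shown, and the intervals overlap except where cells with natural killer or gamma-delta UMIs are left out (13.5 to 21 against 21.7 to 28.5).

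Inside the memory-like cells the libraries were close. Of 7363 genes with at least 20 UMIs in members of both libraries together, 364 (4.94%) were at least 2-fold higher and 230 (3.12%) at least 2-fold lower in the ATG5 KO library, and the median log2 ratio was 0.03. Ratios are ATG5 KO over WT with exact 95% intervals of the counts, which leave out the variation between cells and animals. The gate genes held their level per class: Ccl5 stood at 1615 and 1573 CPM (ratio 0.974, 0.891 to 1.07), Eomes at 442 and 520 (1.18, 0.996 to 1.4), Cxcr3 at 90.6 and 93.0 (1.03, 0.699 to 1.53) and Xcl1 at 113 and 107 (0.943, 0.666 to 1.35). Since the gate selected on them, these ratios are a description. Il2rb had a ratio of 1.05 (0.917 to 1.21) and that of Ly6c2, at 1868 and 2080 CPM, had an interval of 1.03 to 1.21. In gate-zero cells Ly6c2 had a ratio of 0.742 (0.661 to 0.832). Cd44 had a ratio of 0.758 (0.597 to 0.966). Over all 7363 genes 3939 were above 1 and 3424 below, and over the 7242 genes measured in gate-zero cells 3716 and 3526. Of 22 memory genes, 14 were above 1 and 8 below, with a median log2 ratio of 0.10, and Ifng and Fasl passed 2-fold.

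**Figure D5:**
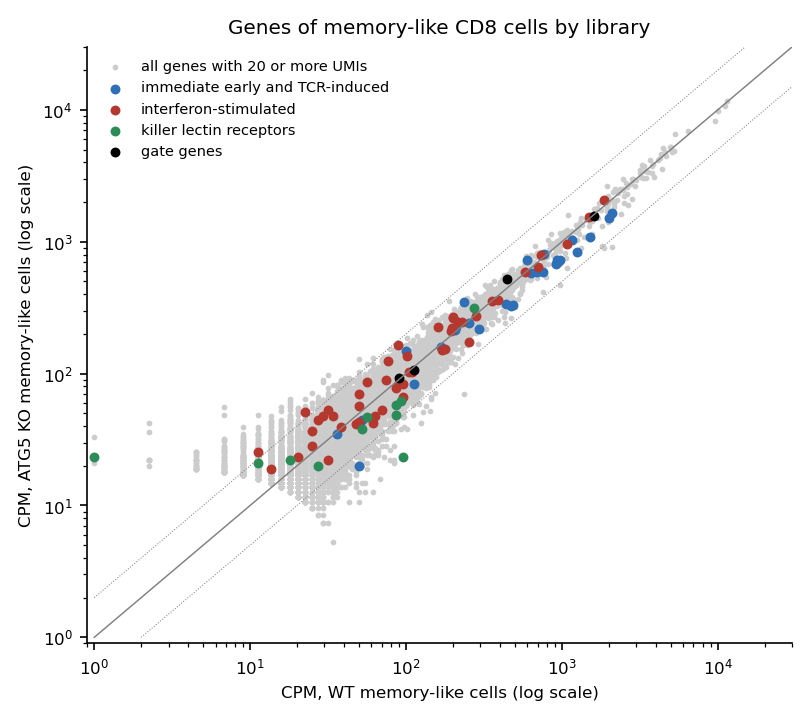
Level of each gene with at least 20 UMIs in memory-like cells, in CPM on log axes, in the WT (x) and ATG5 KO (y) libraries, with values under 1 CPM drawn at 1. The solid line marks equal levels and the dotted lines a 2-fold difference. The gate genes (black) lie near the line, and most immediate early genes (blue) lie just below it.

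Genes past 2-fold between the libraries often rested on few UMIs or few cells. Ifng stood at 31.7 CPM in the WT and 98.3 in the ATG5 KO members (ratio 3.10, 1.76 to 5.89), with 48 of the 93 UMIs in 1 cell. Fasl stood at 11.3 and 38.1 CPM (3.36, 1.31 to 11), in 5 and 20 cells with at most 5 UMIs each. Gzmb had 1 and 40 UMIs, 30 of the latter in 1 cell. Hmgcs1, an enzyme of cholesterol synthesis, had 1 UMI in the WT members and 34 in 28 ATG5 KO members (15.9, 2.66 to 645), against a ratio of 0.902 (0.628 to 1.30) in gate-zero cells. Sox4 had 3 and 53 UMIs, 18 of the latter in 1 cell. 4632427E13Rik, Abhd10, Josd1 and Taf9b each had 1 and 21 UMIs (9.81, 1.58 to 406). Lgals3, which encodes galectin-3, had 1 and 19, 15 of the latter in 1 cell. Of 11 measured killer lectin genes 4 were above 1 and 7 below, with a median log2 ratio of -0.44, against 3939 above and 3424 below over all genes. Klra8 had no UMI in WT members and 22 in 4 ATG5 KO members. Klra6, another Ly49 gene, stood at 95.1 and 23.3 CPM (0.245, 0.139 to 0.419), with 13 of the 42 WT UMIs in 1 cell. Klra1 stood at 86.0 and 48.6 CPM (0.565, 0.360 to 0.893). Trdc had 22 UMIs in 4 WT members and 10 in 5 ATG5 KO members (0.212, 0.0897 to 0.467). Fzr1, an activator of the anaphase-promoting complex, had 27 and 12 UMIs (0.208, 0.0958 to 0.424), Mpp5 had 24 and 12 and Slc9a8 had 14 and 7. Megf9 had 19 and 10, 18 of the former in 1 cell. Esrra, a nuclear receptor of mitochondrial metabolism, had 15 and 5 UMIs, and Bag3, a stress-induced chaperone partner, had 30 and 15 (0.233, 0.117 to 0.448) against a ratio of 0.558 (0.348 to 0.891) in gate-zero cells.

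Immediate early genes, which respond within minutes to receptor signals and to cell handling, lay mainly below 1 in the ratio of ATG5 KO to WT in both classes, a pattern the members thus share with gate-zero cells. Among members 6 of 28 were above 1 and 22 below, with a median log2 ratio of -0.34, and in gate-zero cells 4 were above and 24 below, with a median of -0.22. Over all genes measured, 3939 of 7363 were above 1 in members and 3716 of 7242 in gate-zero cells. Fos stood at 2006 CPM in the WT and 1507 in the ATG5 KO members (0.751, 0.690 to 0.818). Jund stood at 1517 and 1085 CPM (0.715, 0.648 to 0.789) and the heat shock gene Hspa1a at 1257 and 835 (0.665, 0.596 to 0.742). In gate-zero cells the ratio of Hspa1a was 0.565 (0.520 to 0.615). Nfkbia, an inhibitor of NF-kappaB, ran the other way at 600 and 732 CPM (1.22, 1.06 to 1.41), as it did in gate-zero cells (1.32, 1.17 to 1.48). No member of the list but Egr3 passed 2-fold.

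Interferon-stimulated genes had no steady direction between the libraries. Among members 29 of 49 were above 1 and 20 below, with a median log2 ratio of 0.11, and in gate-zero cells 19 were above and 30 below, with a median of -0.06. The counts over all genes were 3939 of 7363 above 1 in members and 3716 of 7242 in gate-zero cells. The median among members was -0.01 in male cells, 0.74 in female cells, -0.01 at a mitochondrial maximum of 10% and -0.09 among cells of 2000 to 6000 UMIs. The female value compares 57 ATG5 KO members with only 11 WT members. Irf7, the amplifier of type I interferon, had 10 and 48 UMIs in 7 and 34 members (2.24, 1.12 to 4.97), and Ifi47, a GTPase induced by interferon gamma, had 112 and 165 (0.688, 0.538 to 0.882). Of 13 MHC class I genes 3 were above 1 and 10 below in members, with H2-K1 at 2962 and 2627 CPM (0.887, 0.829 to 0.949) and B2m at 4287 and 4289. In gate-zero cells 2 of these 13 were above 1 and 11 below, with a median log2 ratio of -0.07 against -0.17 in members. Of 14 measured autophagy genes 6 were above 1 and 8 below, with a median log2 ratio of -0.06, against -0.01 in gate-zero cells. Atg5 had a ratio of 1.19 (0.697 to 2.11) in members and 0.994 (0.735 to 1.35) in gate-zero cells.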

How the data were processed

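The deposited files hold whole-number counts of molecules per barcode and gene for all barcodes, made by the authors with the BD Rhapsody WTA Analysis Pipeline 1.11 on mm10, per the file headers, with intronic reads kept and no sample tags. The error-corrected counts were used as deposited. Cells were called again by the thresholds of the opening; no doublet caller was run, and the gate itself removed cells with Cd4, B cell or endothelial genes. Members and gene lists were chosen with earlier results of these data known. UMIs were summed per library and class without mitochondrially encoded genes. The class test used edgeR 4.0.16 (R 4.3.3; TMM, filterByExpr with a minimum count of 10, library as block), and the 13 genes of the rule were left out of it. Tested on simulated counts of this comparison (8246 genes), it called 75.0% of 2-fold and 89.9% of 4-fold changes and 3 of 8051 unchanged genes. How far these values hold for the real counts was not tested. Alternatives changed the gate, the depth, mitochondrial and sex limits, other-cell markers, raw molecules, scaling, filter, block and tool (DESeq2 1.42.0). One alternative, without cells holding 10 or more cell cycle UMIs, was chosen after seeing the data. Genotype ratios carry exact conditional binomial intervals and shares Clopper-Pearson intervals (scipy 1.17.1), for counting error only. Cells were called male or female from UMIs of Y-linked genes or of Xist. Thinned shares are the expected shares when each cell is drawn down to 1200 UMIs. Genes were named by a rule: the gate genes; in each list up to 4 members with the most UMIs, and its called members where these were 5 or fewer; the 10 highest and 10 lowest called log2 differences with the same direction in both libraries; and the 8 highest and 8 lowest genotype ratios with intervals excluding 1. Others are named to show a list and were chosen after their values were seen. Gene identifiers and coordinates are from GENCODE vM21, promoters from RefSeq, with 1 chromosome left out of the motif search. Some genes are not reported here.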

Additional observations from a re-analysis of the deposited data

How the results depend on the processing

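The 4 sums gave 362 genes higher and 232 lower in memory-like cells. The counts were 164 and 36 at a mitochondrial maximum of 10%, 197 and 78 among cells of 2000 to 6000 UMIs, 113 and 41 with raw molecules, 57 and 17 in male cells, 35 and 8 in female cells and 61 and 15 with DESeq2. Without the replicate block for library they were 174 and 66, and with at least 30 UMIs in both sums of 1 class they were 228 and 173. The class sums are paired within a library by the library block, as the labels carry no replicate numbers, and without 1 library the test had no residual degrees of freedom. The cause of these differences was not tested. For the ATG5 KO library, genes at least 2-fold higher in members made up 8.55% at a mitochondrial maximum of 10%, 15.8% in female cells, 1.83% with at least 50 UMIs and 7.48% with at least 10 UMIs. Genes at least 2-fold lower made up 4.75% in male cells, 6.96% in female cells, and 1.15% and 5.44% with at least 50 and 10 UMIs. Female members numbered 11 in the WT and 57 in the ATG5 KO library. The median ratio of interferon-stimulated genes changed sign to -0.01 (mitochondrial maximum of 10%), -0.09 (2000 to 6000 UMIs) and -0.01 (male cells), and was 0.74 in female cells. Class differences changed sign for Cd74 (0.20 without B cell UMIs, 0.05 among cells of 2000 to 6000 UMIs, 0.16 without cycling cells) and Cst3 (0.01 without B cell UMIs, 0.14 without natural killer or gamma-delta UMIs). Leaving out 1 library at a time, they ran from -2.76 (without ATG5 KO) to 0.29 (without WT) for Cd74, from -1.68 to 0.03 for Cst3 and from -3.83 to 0.28 for H2-Ab1. Signs also changed for Fosb (-0.09) and Nr4a2 (-0.02) in male cells, and for Mcm3 (-0.27), Pcna (-0.12) and Satb1 (0.01) among cells of 2000 to 6000 UMIs. Sums of 87 and 179 cells limit genes of a few UMIs, whose ratios rest on single cells.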
